A study of Homo sapiens with 44 samples.

Results

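The enzymes described here were the drug and xenobiotic metabolism genes of the human genome, taken as the protein-coding genes whose symbols place them among the cytochrome P450s (CYP, without CYP51A1), the UDP-glucuronosyltransferases (UGT), the cytosolic and kappa glutathione S-transferases (GST), the sulfotransferases (SULT), the carboxylesterases (CES) and the arylamine N-acetyltransferases (NAT). The rule used names only and no measured value. It found 114 genes among the 58721 genes of the count tables, of which 19940 were protein-coding. They comprised 55 P450s, 22 UGTs, 17 GSTs, 13 SULTs, 5 CESs and 2 NATs.

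The study used A549, a human lung adenocarcinoma cell line, as the parental line (WT), and 3 isogenic lines named het1, het2 and homo in which the acetyltransferase p300 carries a truncation of its TAZ2 domain, a zinc-binding protein interaction domain. RNA-seq was done on cultured cells of each line (3 libraries per line), on xenograft tumours of each line taken at day 30 (4 per line), and on WT and het1 tumours given the solvent DMSO or SAHA (vorinostat, a histone deacetylase inhibitor) for 4 weeks (4 per group), which makes 44 libraries in 12 groups. The labels name neither the host animals, nor the SAHA dose, nor whether a line is 1 clone or several, and the homo genotype rests on 1 line. They do not say that replicate libraries came from separate cultures or animals, so the p-values measure the spread between these libraries, which may be technical for the cultures.

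The libraries held 61168373 to 99593214 counts. EP300, the gene of p300, lay between 83.4 and 181 CPM (counts per 1e6 counts) in each library, but a count over the whole gene does not show a truncation and so does not check the genotypes. Of 8 A549 epithelial markers, 5 (KRT8, KRT18, KRT7, EPCAM and CDH1) had a mean of at least 1 CPM in each group and the alveolar genes NKX2-1, SFTPB and SFTPC did not reach 1 CPM in any. The summed level of those markers was 6326 to 6676 CPM in the WT cultures, 780 to 796 CPM in the homo cultures and 3458 to 7072 CPM in the day 30 tumours. Levels below are CPM normalised over the 44 libraries. Cultures and tumours were counted in separate tables. In each contrast of tumour with culture, a batch of libraries, if any, cannot be told apart from the growth state. A gene is said to have risen, fallen or been called when edgeR's quasi-likelihood test gave a Benjamini-Hochberg adjusted p under 0.05 over all genes tested, and fold changes are on the log2 scale with their standard error (SE).

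Foreign compounds, drugs and many hormones are cleared in steps. P450s and esterases first add or uncover a polar group, with electrons that P450 reductase (POR) passes from NADPH to the P450s. Transferases then attach glucuronic acid (UGTs, with UDP-glucuronate made by UGDH), glutathione (GSTs), sulfate (SULTs, with the sulfate donor made by PAPSS1 and PAPSS2) or acetyl groups (NATs), and efflux pumps remove the conjugates. The set is strongest in liver and gut, where HNF4A and the nuclear receptors drive it, while the aryl hydrocarbon receptor (AHR) acts through the xenobiotic response element and NRF2 (NFE2L2) through the antioxidant response element. A549 carries an inactivating KEAP1 mutation, which leaves NRF2 stable, and it is known for a high level of NRF2 targets.

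The stretches of promoter shown next belong to members whose levels separate the groups, or stay level, in the results that follow. They are RefSeq sequences of GRCh38.p14, 100 bases each, 5′ to 3′ on the strand of the gene, and each ends at the base before the RefSeq start. The UGT1A7 (chr2:233681801-233681900), UGT1A9 (chr2:233671798-233671897) and CYP1A1 (chr15:74725529-74725628) stretches carry a xenobiotic response element core (GCGTG, or CACGC on the other strand), in capitals.
UGT1A7: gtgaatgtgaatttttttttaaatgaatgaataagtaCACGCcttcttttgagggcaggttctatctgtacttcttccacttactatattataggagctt
UGT1A9: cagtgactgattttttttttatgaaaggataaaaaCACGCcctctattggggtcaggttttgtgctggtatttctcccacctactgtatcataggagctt
CYP1A1: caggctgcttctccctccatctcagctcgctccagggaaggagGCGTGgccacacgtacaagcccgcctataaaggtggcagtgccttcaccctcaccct

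The GSTP1 stretch (chr11:67583712-67583811) carries an antioxidant response element core, in capitals. Those of GSTA1 (chr6:52803817-52803916) and GSTA2 (chr6:52763476-52763575) show how alike these neighbouring genes are, and capitals mark the bases at which they differ.
GSTP1: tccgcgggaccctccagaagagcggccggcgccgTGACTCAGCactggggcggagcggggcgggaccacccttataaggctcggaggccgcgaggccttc
GSTA1: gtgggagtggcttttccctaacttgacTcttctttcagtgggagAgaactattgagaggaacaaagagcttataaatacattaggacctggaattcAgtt
GSTA2: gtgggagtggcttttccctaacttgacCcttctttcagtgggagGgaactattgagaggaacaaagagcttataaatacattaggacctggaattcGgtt

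The GSTA1 and GSTA2 stretches were identical at 97 of 100 bases. Over windows of 250 bases before to 50 after the start, searched on both strands, the antioxidant core TGACNNNGC was in 14 of the 86 members with a RefSeq promoter (16.3%) and in 13.3% of 35116 promoters. The xenobiotic core GCGTG was in 26 members (30.2%) and in 36.5% of promoters. A match is a description of the letters and shows neither binding nor use.

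A minority of the set was expressed. Of the 114 members, 34, 32, 33 and 34 had a mean of at least 1 CPM in the WT, het1, het2 and homo cultures, and 48, 37, 44 and 39 in the day 30 tumours of the same lines. Across the 12 groups, 58 members reached 1 CPM in at least 1 group, 23 did so in each group, and 4 (GSTT4, CYP11B1, CYP11B2 and CYP3A7-CYP3A51P) had no count in any library. Per kilobase of exon, the most abundant members in WT culture were CYP24A1 (206 CPM per kb), GSTP1 (200), GSTO1 (56.4), CYP2S1 (31.6) and CYP4F11 (29.2). In WT tumours they were GSTP1 (444 CPM per kb), CYP24A1 (201), GSTA1 (103) and CES1 (58.7), and in homo tumours GSTP1 (397), CYP24A1 (112) and GSTO1 (51.8).

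**Figure D1:**
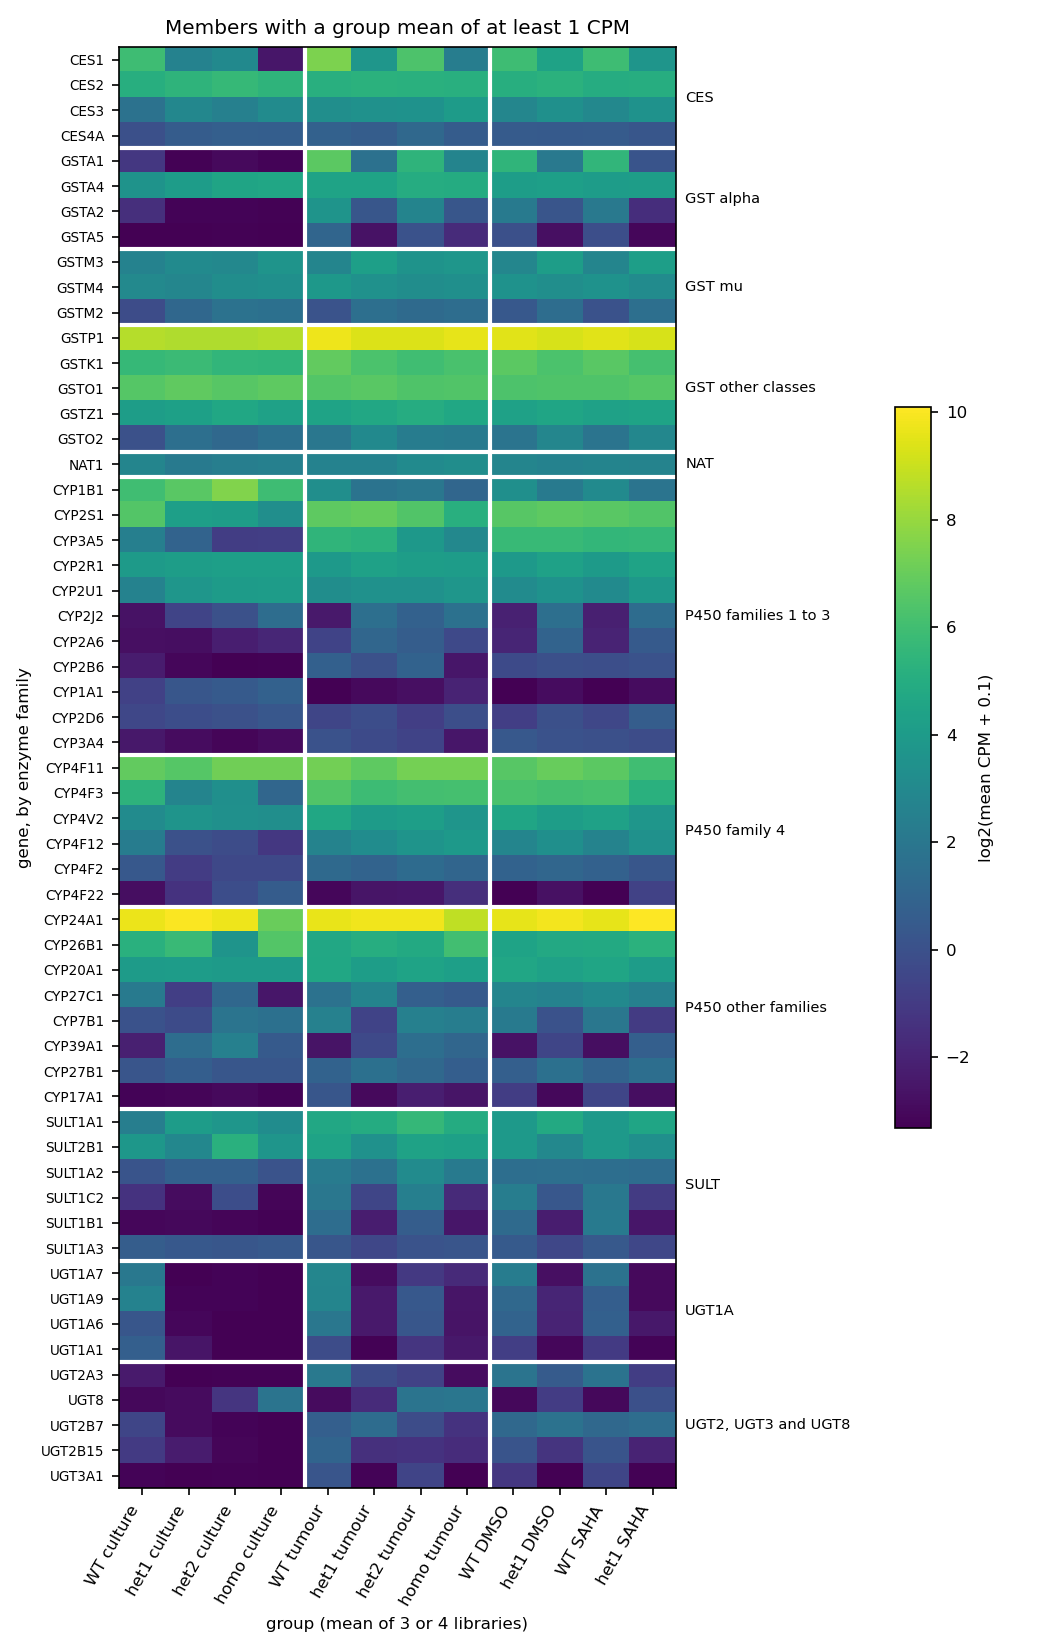
Mean level of 57 of the 58 members with at least 1 CPM in a group, as log2(CPM + 0.1), by group (columns) and enzyme family (rows). CYP24A1 and GSTP1 are bright across the row, the UGT1A block is dark in every group but the WT groups and the het2 tumours, and GSTA1 is bright in the WT and het2 tumours.

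The summed level of the members was 1949 ± 39.6 CPM in WT culture, 2048 ± 20.9 in het1, 2024 ± 24.9 in het2 and 1226 ± 3.39 in homo (SD, 3 libraries each). In day 30 tumours the sums were 2887 ± 88.8, 2412 ± 75.8, 2528 ± 98.8 and 2028 ± 65.6 CPM in the same order (SD, 4 libraries each). The homo line was lowest in both settings, and its libraries did not overlap those of WT. In culture most of that gap came from 1 gene, CYP24A1, with means of 816 CPM in WT and 132 CPM in homo. The lower sum in homo culture thus does not describe the set as a whole. A level in a bulk sample can fall because fewer cells carry a transcript or because each cell carries less, and these cannot be told apart.

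Most members that could be tested differed between a truncated line and WT, as did 49.2% to 70.5% of all genes tested. In culture 60 members passed the filter on low counts. Of these, 24 rose and 20 fell in het1 (73.3%, against 62.8% of all genes tested), 30 rose and 18 fell in het2 (80.0% against 68.5%), and 29 rose and 20 fell in homo (81.7% against 70.5%). Their median log2 fold changes were -0.02, 0.34 and 0.26. In day 30 tumours 79 members were tested: 23 rose and 35 fell in het1 (73.4% against 51.5%), 23 and 30 in het2 (67.1% against 49.2%), and 16 and 35 in homo (64.6% against 54.8%), with medians of -0.31, -0.09 and -0.22. Of all genes tested, 26.8%, 24.4% and 27.1% rose and 24.8%, 24.8% and 27.7% fell in these tumour contrasts, and 32.0%, 35.1% and 35.4% rose and 30.8%, 33.3% and 35.1% fell in culture. A member can pass the filter through its higher group alone, so these counts describe the tested members and not the set. The 3 contrasts of each setting share the WT libraries.

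Among 16 members with the highest mean over the groups, 15, 14 and 15 were called in het1, het2 and homo culture. Of all genes, 62.8%, 68.5% and 70.5% were. In the tumours 11, 11 and 12 were called, beside 51.5%, 49.2% and 54.8% of all genes. The panel was picked for high counts, at which small shifts pass, such as 0.13 for GSTP1 in homo culture. GSTO1 was the 1 member of this panel that passed in none of the 3 tumour contrasts. Homo also differed from the mean of het1 and het2, at 19 rises and 18 falls in culture (61.7% of members tested, against 49.9% of all genes, with 25.0% of all genes up and 24.9% down) and 17 rises and 31 falls in tumours (60.8% against 44.7%, with 22.1% of all genes up and 22.7% down).

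**Figure D2:**
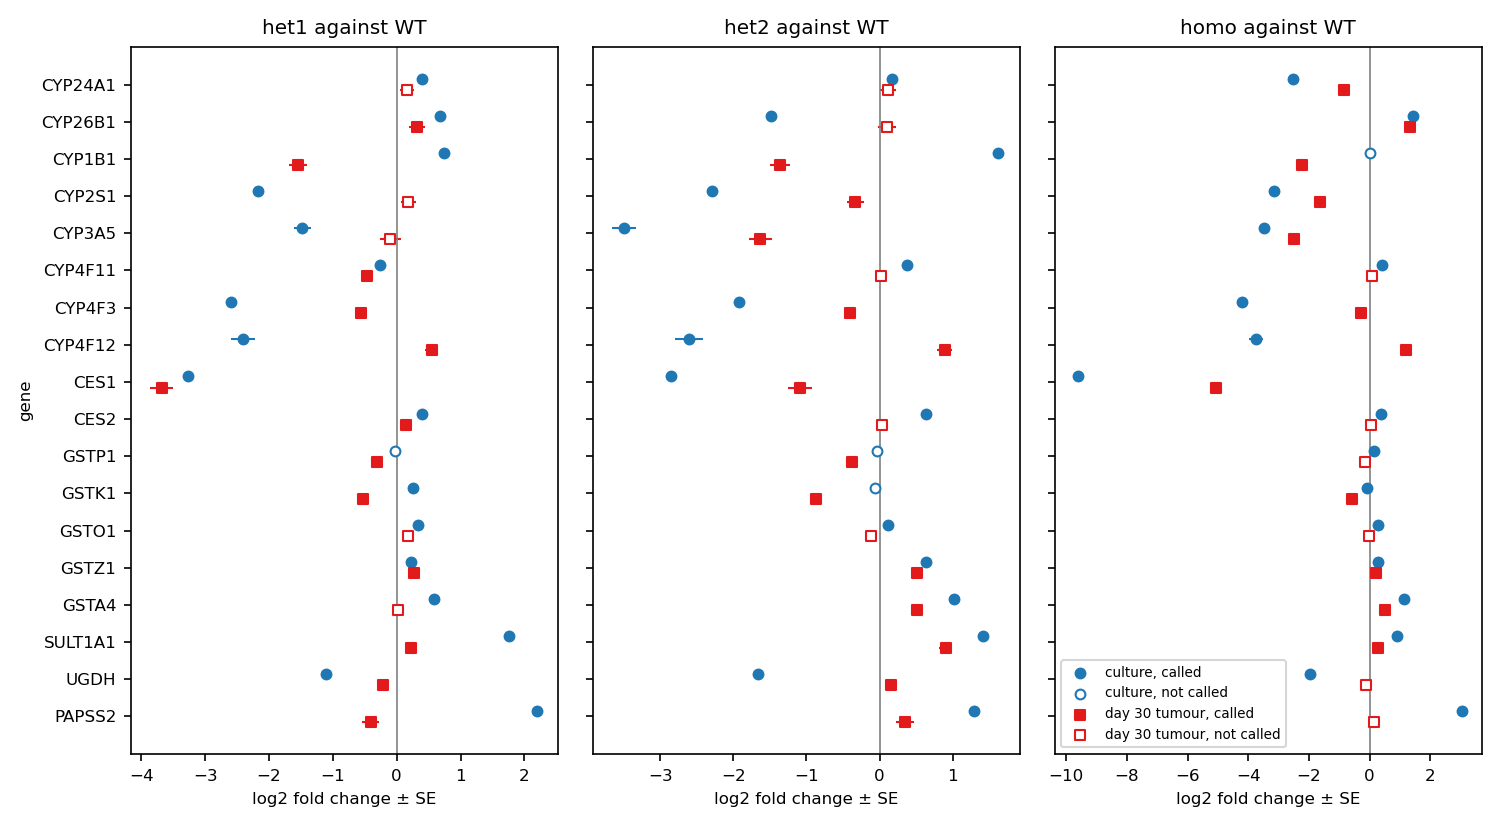
Log2 fold change ± SE of each truncated line against WT for 15 of the 16 panel members and for CYP4F12, UGDH and PAPSS2, in culture (circles) and day 30 tumours (squares). Filled symbols are called, and the x scale differs between the 3 panels. CES1 lies left of 0 throughout, CYP4F12 changes side between culture and tumour in the 3 lines, and CYP1B1 in het1 and het2.

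By its mean over the 12 groups, the most abundant P450 was CYP24A1, the mitochondrial hydroxylase that inactivates vitamin D hormones (chr20:54153449-54173973, minus strand, GRCh38). In homo culture CYP4F11 was higher, at 147 against 132 CPM. CYP24A1 was at 822, 806 and 822 CPM in the WT cultures, 1025, 1043 and 1008 in het1, 868, 887 and 871 in het2 and 129, 134 and 133 in homo. The homo cultures thus sat far below the other 3 lines, which did not overlap each other either. The log2 fold change against WT was -2.54 ± 0.024 (SE, adjusted p = 3.96e-38) in homo, 0.40 ± 0.022 (SE, adjusted p = 8.23e-17) in het1 and 0.17 ± 0.022 (SE, adjusted p = 2.29e-08) in het2. Day 30 homo tumours held 399, 438, 530 and 410 CPM against 802, 826, 824 and 746 in WT, a fold change of -0.83 ± 0.11 (SE, adjusted p = 3.51e-06) with no overlap, while the het1 and het2 tumours (686 to 1000 CPM) overlapped WT and were not called. The difference between homo and WT was smaller in tumours than in culture by 1.79 ± 0.14 (SE, adjusted p = 2.37e-11). VDR, the receptor of the hormone that CYP24A1 degrades, was at 3.65 ± 0.499 CPM in WT, 6.13 ± 0.243 in het1, 7.03 ± 0.342 in het2 and 2.02 ± 0.133 in homo cultures (SD, 3 libraries), a log2 fold change of -0.76 ± 0.11 (SE, adjusted p = 4.72e-07) in homo. VDR and the other genes outside the enzyme set that are named here, apart from POR, UGDH, PAPSS1, PAPSS2, AHR, NFE2L2 and NR1I2, were chosen after their values had been seen.

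CYP26B1, which clears retinoic acid, followed another order. Cultures held 38.4, 34.5 and 34.6 CPM in WT, 53.8, 54.7 and 55.8 in het1, 11.1, 12.9 and 12.3 in het2 and 92.6, 91.4 and 89.5 in homo. Each line stood apart from the others, with het2 lowest (-1.49 ± 0.048 SE, adjusted p = 2.43e-23) and homo highest (1.43 ± 0.042 SE, adjusted p = 2.51e-24). In tumours the homo line remained highest, at 64.8, 53.5, 73.8 and 69.7 CPM against 22, 31.8, 23.4 and 27.5 in WT (1.34 ± 0.12 SE, adjusted p = 4.95e-08). Het2 tumours (31.3, 27.8, 23 and 31.5 CPM) overlapped WT, and CYP26B1 was higher in het2 tumours than in het2 culture by 1.22 ± 0.12 (SE, adjusted p = 1.08e-09).

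Among P450s of oxysterol and bile acid synthesis, CYP39A1, which hydroxylates 24-hydroxycholesterol, was near 0 in WT and present in the truncated lines. WT cultures held 0.16, 0.0409 and 0.172 CPM, het1 2.41, 2.87 and 2.7, het2 6.11, 5.38 and 5.33 and homo 1.03, 1.3 and 1.5, rises of 4.46 ± 0.24 (SE, adjusted p = 3.63e-17), 5.54 ± 0.22 (SE, adjusted p = 7.58e-21) and 3.41 ± 0.27 (SE, adjusted p = 5.05e-13). Tumours kept that separation, at 0.0253 to 0.120 CPM in WT, 0.512 to 0.838 in het1, 2.47 to 3.00 in het2 and 1.95 to 2.22 in homo, with rises of 3.43, 5.40 and 5.03. CYP7B1, the oxysterol 7-alpha-hydroxylase, was higher in the het2 (3.51 ± 0.141 CPM) and homo (2.98 ± 0.373) cultures than in WT (0.946 ± 0.0448). In tumours it was het1 that stood apart, at 0.365, 0.679, 0.472 and 0.681 CPM against 5.38, 7.16, 5.1 and 5.81 in WT (-3.39 ± 0.2 SE, adjusted p = 1.07e-11). CYP27C1, a retinoid desaturase, fell in culture in het1 (-3.16), het2 (-0.94) and homo (-5.69). At day 30 it was higher in het1 tumours than in WT tumours (1.06 ± 0.23 SE, adjusted p = 0.000841). The separate treated tumours did not repeat this. Means were 1.34 CPM per kb in het1 and 1.52 in WT under DMSO, and 1.26 and 1.79 under SAHA.

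The P450 families 1 to 3 metabolise most drugs and pollutants, and 11 of their 24 members were tested in culture: 5 rose and 3 fell in het1 (72.7%, against 62.8% of all genes), 7 and 2 in het2 (81.8% against 68.5%), and 7 and 3 in homo (90.9% against 70.5%). Their median log2 fold changes were 0.24, 0.65 and 0.97, beside 0.03, 0.02 and 0.01 over all genes. CYP1B1, an AHR target that oxidises polycyclic aromatic hydrocarbons and oestradiol (chr2:38066973-38109902, minus strand), was at 10.6 CPM per kb in WT, 16.8 in het1, 31.0 in het2 and 10.0 in homo culture. Its libraries held 68.9, 60.9 and 61.2 CPM in WT, 101, 104 and 98.3 in het1, 177, 187 and 195 in het2 and 58.9, 59.4 and 62.8 in homo. The het1 and het2 cultures lay above WT without overlap (0.74 ± 0.04 SE, adjusted p = 3.08e-16 and 1.62 ± 0.04 SE, adjusted p = 4.16e-25), and the homo cultures overlapped WT. In tumours the order was another one, and WT held 11.3, 9.07, 9.01 and 10.3 CPM, het1 2.98, 3.09, 3.73 and 3.71, het2 3.66, 3.22, 4.82 and 3.94 and homo 1.96, 2.64, 2.15 and 1.63. All 12 truncated tumours lay below the 4 WT tumours, with fold changes of -1.54 ± 0.14 (SE, adjusted p = 1.37e-08), -1.36 ± 0.14 (SE, adjusted p = 8.83e-08) and -2.22 ± 0.15 (SE, adjusted p = 7.32e-11). The WT and het1 tumours given DMSO, which share no library with the day 30 tumours, differed in the same direction (-1.22 ± 0.11 SE, adjusted p = 9.93e-09). The exons of CYP1B1 overlap antisense transcripts over 12.9% of their length, and the strand setting of the counting was not given in the sources used here.

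CYP1A1, the classical AHR target whose promoter is shown above, was low and rose in culture from 0.673, 0.422 and 0.413 CPM in WT to 1.18, 1.26 and 0.857 in het1, 1.35, 1.22 and 1.34 in het2 and 1.96, 1.38 and 1.75 in homo. The rises were 1.23 ± 0.23 (SE, adjusted p = 1.63e-05), 1.47 ± 0.22 (SE, adjusted p = 4.61e-07) and 1.86 ± 0.22 (SE, adjusted p = 4.09e-09), and no truncated library overlapped WT. In tumours of the 4 lines it was between 0 and 0.176 CPM. WT tumours held 1 count over 4 libraries against 109 counts over 3 cultures, a ratio of 164 (95% exact interval 28.7 to 6519). This interval and those below cover counting error only.

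CYP2S1, an extrahepatic P450 of epithelia (chr19:41193049-41207539, plus strand), was lower in the truncated cultures and much less so in the tumours. WT cultures held 92.4, 88.6 and 91.6 CPM, against 18.9, 18.7 and 20.1 in het1, 16.9, 18.1 and 17.5 in het2 and 10.5, 9.43 and 9.07 in homo, log2 fold changes of -2.17 ± 0.046 (SE, adjusted p = 3.51e-28), -2.30 ± 0.046 (SE, adjusted p = 4.91e-29) and -3.14 ± 0.05 (SE, adjusted p = 6.62e-32). In tumours het1 reached 126, 108, 129 and 121 CPM, which overlapped the 123, 100, 113 and 96.8 CPM of WT and was not called. Het2 tumours (99.6, 94.7, 63.2 and 90 CPM) differed by -0.33 ± 0.12 (SE, adjusted p = 0.0332), a call lost without WT replicate 0 (-0.27), WT replicate 2 (-0.31) or het2 replicate 3 (-0.21), and homo tumours (30.8, 40.6, 31.8 and 36.2 CPM) stayed lower (-1.62 ± 0.13 SE, adjusted p = 1.2e-08). The line effects in tumours and culture differed by 2.42, 2.06 and 1.61 in het1, het2 and homo.

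CYP3A5, the main CYP3A enzyme outside the liver (chr7:99648194-99680026, minus strand), fell in the 3 truncated cultures and rose in tumours of each line. Cultures held 5.48, 4.55 and 6.03 CPM in WT, 1.76, 1.74 and 1.98 in het1, 0.371, 0.502 and 0.472 in het2 and 0.432, 0.479 and 0.453 in homo. Tumours held 44.9, 39, 46.9 and 42.3 CPM in WT and 41.8, 43.5, 39 and 35.2 in het1, which overlapped, then 15.5, 12.1, 12.7 and 16.2 in het2 and 5.74, 10.6, 5.82 and 8.64 in homo, both below. The fold changes against WT tumours were -1.63 ± 0.16 (SE, adjusted p = 4.25e-07) in het2 and -2.48 ± 0.17 (SE, adjusted p = 3.23e-09) in homo, and those of tumour against culture were 3.00 in WT, 4.46 in het1, 4.97 in het2 and 4.08 in homo.

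CYP2J2, an arachidonic acid epoxygenase, was nearly silent in WT and present in the truncated lines in both settings. It rose from 0.128, 0.0136 and 0.0229 CPM in WT culture to 2.64, 2.24 and 3.02 in homo (5.77 ± 0.34 SE, adjusted p = 2.74e-16), with het1 (0.574) and het2 (0.898) between. Day 30 tumours held 0.0120 to 0.173 CPM in WT and 1.19 to 3.36 CPM in the truncated lines, and het1 tumours under DMSO held 2.99, 3.29, 2.83 and 2.57 CPM against 0.11, 0.0299, 0.151 and 0.262 in WT (4.41 ± 0.4 SE, adjusted p = 5.07e-08). CYP2U1, a fatty acid hydroxylase, rose in the 3 cultures by 1.17, 1.50 and 1.55.

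Family 4 P450s hydroxylate fatty acids, leukotrienes and vitamin K, and its CYP4F genes lie together on chromosome 19. CYP4F11, an NRF2-linked omega-hydroxylase (chr19:15912367-15934867, minus strand), moved least of the 3 abundant CYP4F genes, at 117, 119 and 117 CPM in WT culture, 91.9, 94.2 and 93 in het1, 145, 147 and 144 in het2 and 149, 148 and 144 in homo. The groups did not overlap WT, yet the shifts were small (-0.26, 0.38 and 0.41). CYP4F3, which inactivates leukotriene B4 (chr19:15640897-15662825, plus strand), fell from 39.3, 39.8 and 42.5 CPM in WT culture to 6.11, 6.92 and 6.22 in het1, 10, 10.4 and 9.99 in het2 and 2.15, 1.94 and 2.04 in homo. The log2 fold changes were -2.59 ± 0.06 (SE, adjusted p = 4.83e-27), -1.93 ± 0.056 (SE, adjusted p = 2.25e-24) and -4.22 ± 0.072 (SE, adjusted p = 4.36e-31). In tumours the gap nearly closed, at 86.9 CPM in WT, 58 in het1, 66.8 in het2 and 70.9 in homo, log2 fold changes of -0.56, -0.40 and -0.28. The homo line rose by 5.12 ± 0.099 (SE, adjusted p = 2.5e-28) from culture to tumour, against 1.09 ± 0.074 (SE, adjusted p = 2.17e-14) in WT.

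CYP4F12, a neighbour that oxidises arachidonic acid and antihistamines (chr19:15672757-15697174, plus strand), changed side. WT cultures held 4.01, 4.85 and 5.81 CPM, het1 0.539, 0.977 and 1.15, het2 0.651, 0.735 and 0.892 and homo 0.356, 0.356 and 0.321, log2 fold changes of -2.41 ± 0.19 (SE, adjusted p = 5.41e-13), -2.61 ± 0.19 (SE, adjusted p = 5.81e-14) and -3.74 ± 0.22 (SE, adjusted p = 2.91e-16). WT tumours held 6.99, 5.29, 7.24 and 6.09 CPM, het1 9.79, 9.1, 8.91 and 9.19, het2 14, 11.3, 10.2 and 12.6 and homo 13.3, 14.7, 15.7 and 14.9. Each truncated tumour lay above each WT tumour, with rises of 0.55 ± 0.1 (SE, adjusted p = 0.000122), 0.89 ± 0.1 (SE, adjusted p = 3.22e-07) and 1.21 ± 0.1 (SE, adjusted p = 2.61e-09). The tests of the difference between the settings gave 3.02 ± 0.22 (SE, adjusted p = 1.43e-12), 3.59 ± 0.22 (SE, adjusted p = 1.36e-14) and 5.03 ± 0.24 (SE, adjusted p = 3.57e-17).

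**Figure D3:**
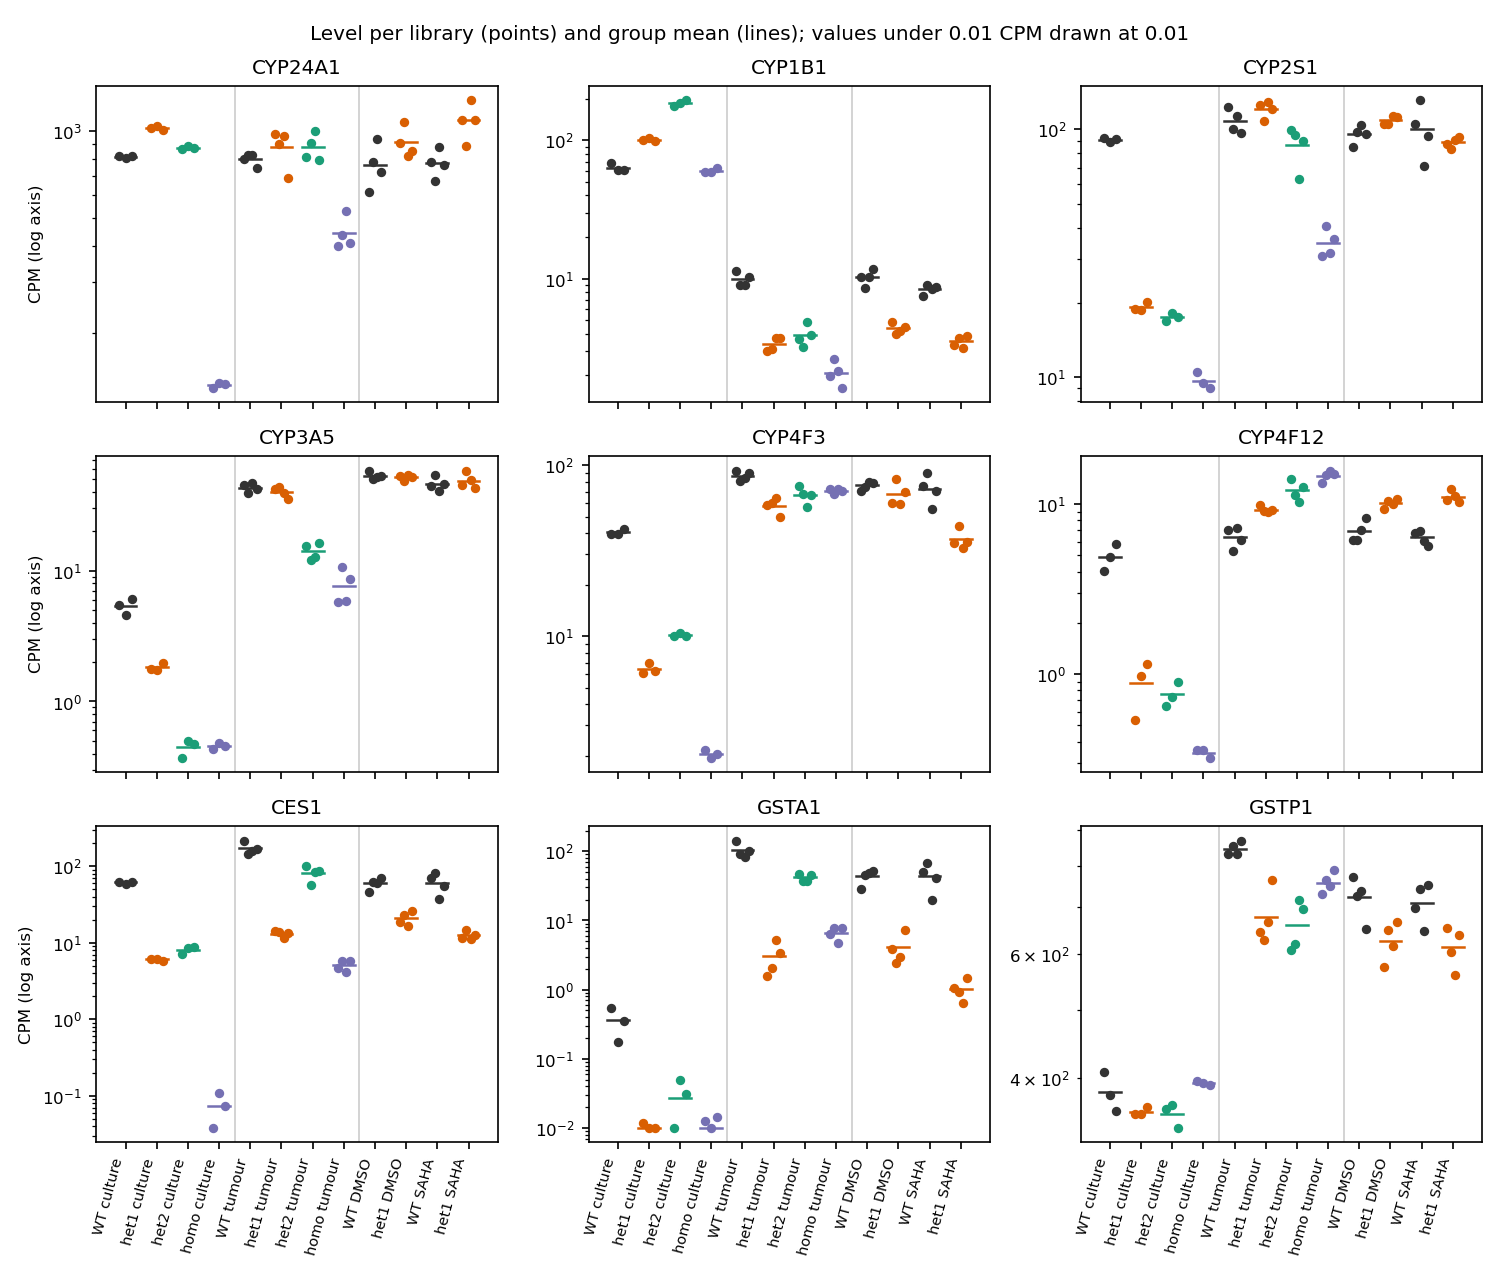
CPM per library (points, log axis) and group mean (lines) of 9 members in the 12 groups, with values under 0.01 CPM drawn at 0.01. CYP24A1 and CYP2S1 are lowest in homo within the cultures and within the day 30 tumours, CYP1B1 is high in culture and low in tumours, and GSTP1 stays within 340 to 870 CPM.

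CES1, the carboxylesterase that hydrolyses ester prodrugs and cholesteryl esters (chr16:55802851-55833337, minus strand), was lower in each truncated line in both settings and close to absent from homo culture. WT cultures held 63.1, 59.1 and 62.4 CPM, het1 6.17, 6.15 and 5.84, het2 7.13, 8.46 and 8.73 and homo 0.0381, 0.109 and 0.073. The fold changes against WT were -3.27 ± 0.064 (SE, adjusted p = 4.58e-29), -2.85 ± 0.061 (SE, adjusted p = 3.91e-28) and -9.61 ± 0.13 (SE, adjusted p = 3.85e-34). In tumours each line was higher than in culture and the order was kept, with 215, 146, 160 and 169 CPM in WT, 100, 56.5, 84.5 and 85.5 in het2, 14.4, 13.7, 11.4 and 13.4 in het1 and 4.66, 5.71, 4.2 and 5.75 in homo. No truncated tumour reached the lowest WT tumour, and the log2 fold changes were -3.68 ± 0.18 (SE, adjusted p = 2.17e-10) in het1, -1.09 ± 0.16 (SE, adjusted p = 4.78e-05) in het2 and -5.07 ± 0.2 (SE, adjusted p = 1.26e-11) in homo. The separate tumours under DMSO differed less. Their means were 7.11 CPM per kb in het1 and 20.3 in WT, against 4.5 and 58.7 at day 30. From culture to tumour the homo line rose by 6.10 ± 0.39 (SE, adjusted p = 3.16e-12) and WT by 1.48 ± 0.15 (SE, adjusted p = 8.96e-09). CES2, which hydrolyses irinotecan among other drugs, stayed between 30.0 and 51.0 CPM in all 44 libraries, with rises of 0.39, 0.63 and 0.38 in the truncated cultures. CES3 rose in the 3 cultures, from 3.25 ± 0.384 CPM in WT to 8.67 ± 0.667 in homo (SD, 3 libraries; 1.50 ± 0.092 SE, adjusted p = 9.14e-16).

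The UGT1A genes share their last exons and differ in their first, and the counted exons of members overlap each other by 40.6 to 80.0% of their length, so reads from the shared part can be split or lost and the single genes are uncertain. The family was close to absent from the truncated cultures. Its summed level was 13.0 ± 0.939 CPM in WT culture, 0.105 ± 0.0204 in het1, 0.0216 ± 0.0274 in het2 and 0 in homo (SD, 3 libraries each). All 4 members tested fell in each of the 3 lines, where 30.8%, 33.3% and 35.1% of all genes fell. These 4 were near 0 in the truncated cultures and passed the filter on low counts through WT. A fall was thus the only direction open to them, and the shares of all genes are no measure for it. UGT1A7 (chr2:233681938-233773299, plus strand), which conjugates tobacco carcinogens, held 4.27, 4.18 and 3.58 CPM in WT culture. It had no count in the het1 and homo cultures, which makes WT at least 316-fold and at least 291-fold higher (a floor of 3 counts over the group), and 3 counts in het2, a ratio of 352 (95% exact interval 120 to 1709). UGT1A9 (chr2:233671853-233773300, plus strand), which conjugates phenols and propofol, held 6.62, 5.65 and 5.7 CPM in WT and had 2 counts in het1 (ratio 710, 196 to 5869), 2 in het2 (790, 218 to 6531) and none in homo (at least 436-fold). The promoters of both carry the xenobiotic core shown above, as do 36.5% of all promoters. Of the 4 members tested, UGT1A1 alone carries none in the window searched. AHR was at 71.5 CPM in WT, 79.8 in het1, 47.9 in het2 and 73.1 in homo, and its part in these changes was not tested.

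At day 30 the UGT1A sum in tumours was 19.6 ± 1.8 CPM in WT, 0.252 ± 0.156 in het1, 3.59 ± 0.347 in het2 and 0.447 ± 0.151 in homo (SD, 4 libraries each). The 7 members tested all fell in het1 and in homo, and 5 of 7 fell in het2, where 24.8%, 27.7% and 24.8% of all genes fell. Members this low in het1 and homo can pass the filter through the WT or het2 tumours alone. These counts therefore do not test the direction of change. UGT1A9 was at 7.89, 6.03, 6.46 and 6.62 CPM in WT, 0.0146, 0.133, 0.105 and 0.109 in het1, 1.64, 1.25, 0.556 and 1.37 in het2 and 0.0321, 0.0283, 0.131 and 0.0982 in homo, log2 fold changes of -6.15 ± 0.37 (SE, adjusted p = 1.03e-10), -2.51 ± 0.27 (SE, adjusted p = 3.83e-07) and -6.43 ± 0.39 (SE, adjusted p = 7.27e-11). UGT1A6, another phenol transferase, was at 1.08, 1.25, 1.07 and 1.03 CPM in het2 tumours and had 1 count over the 3 het2 cultures, a ratio of 295 (52.7 to 11690). The het2 tumours thus held the most of the family among the truncated lines, and WT held it in both settings. Under DMSO the sum was 9.99 ± 1.09 CPM in WT and 0.447 ± 0.299 in het1. The 5 members tested fell, and they too can pass the filter through WT alone.

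**Figure D4:**
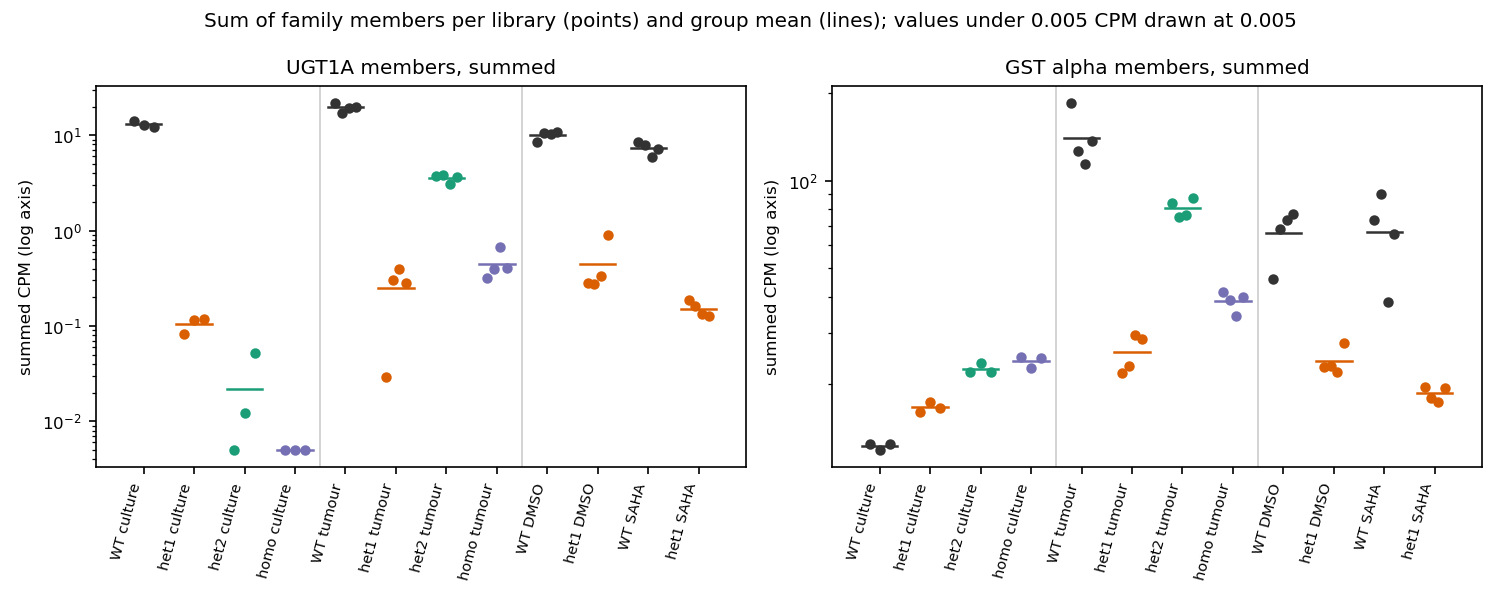
Summed CPM of the 9 UGT1A members (left) and of the 5 alpha class GSTs (right) per library (points, log axis) with group means (lines), with values under 0.005 CPM drawn at 0.005. The WT groups hold the highest UGT1A sums (5.86 to 21.6 CPM), the homo cultures have none, and the alpha class sum is above 70 CPM in each WT and het2 tumour at day 30.

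The other UGTs were low. UGT2B7, which conjugates morphine and steroids, fell in culture from 0.529, 0.708 and 0.527 CPM in WT to 0.0703, 0.0257 and 0 in het1 and to no count in homo (at least 43.1-fold lower). In tumours het1 was higher than WT (2.72, 2.45, 2.61 and 2.52 against 1.6, 1.26, 1.42 and 2.06 CPM, 0.71 ± 0.2 SE, adjusted p = 0.00593) without overlap, and homo was lower (0.256, 0.24, 0.452 and 0.21 CPM, -2.41 ± 0.24 SE, adjusted p = 3.78e-08). UGT8, which transfers galactose to ceramide, went the other way. It rose from 0.016, 0.0409 and 0.0115 CPM in WT culture to 0.337, 0.208 and 0.409 in het2 (3.82 ± 0.48 SE, adjusted p = 1.99e-08) and 3.67, 3.08 and 3.77 in homo (7.27 ± 0.35 SE, adjusted p = 1.09e-18), and in tumours it was at 0.0324 CPM in WT, 0.216 in het1, 3.47 in het2 and 3.72 in homo. UGT2A3, a bile acid transferase, was at 5.47, 3.33, 3.73 and 4.38 CPM in WT tumours and at or under 0.998 CPM in each truncated tumour (-2.53 ± 0.21 SE, adjusted p = 3.22e-09, -3.02 ± 0.22 SE, adjusted p = 5.2e-10 and -6.85 ± 0.32 SE, adjusted p = 3.06e-13).

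GSTP1, the pi class enzyme and the most abundant GST (chr11:67583595-67586656, plus strand), varied little between the lines. Cultures held 408, 379 and 360 CPM in WT, 356, 356 and 364 in het1, 362, 366 and 340 in het2 and 397, 394 and 391 in homo. Only homo was called, at 0.13 ± 0.031 (SE, adjusted p = 0.000494). Tumours held 833, 855, 833 and 870 CPM in WT, 646, 629, 668 and 765 in het1, 608, 621, 717 and 697 in het2 and 731, 765, 750 and 790 in homo. Each line was higher in tumours than in culture, by 1.14 in WT, 0.92 in het1, 0.88 in het2 and 0.95 in homo, and the het1 and het2 tumours were below WT (-0.31 ± 0.064 SE, adjusted p = 0.00037 and -0.38 ± 0.064 SE, adjusted p = 4.7e-05). GSTK1, the mitochondrial and peroxisomal kappa enzyme, rose in WT from 50.4, 49.1 and 50.2 CPM in culture to 119, 111, 114 and 114 in tumours (1.19 ± 0.061 SE, adjusted p = 2.76e-17), and the truncated tumours (57.7 to 87.6 CPM) lay below WT without overlap (-0.53, -0.87 and -0.58). The omega class GSTO1, a thioltransferase, stayed between 67.5 and 116 CPM in all 44 libraries, and GSTZ1, which acts in tyrosine breakdown, between 16.5 and 35.3 CPM.

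The alpha class GSTs, which detoxify lipid peroxides, rose from culture to tumour in each line. GSTA1 (chr6:52791664-52803910, minus strand) had 0.545, 0.177 and 0.355 CPM in WT culture and 142, 92.2, 82.1 and 101 in WT tumours, a rise of 8.20 ± 0.41 (SE, adjusted p = 5.66e-14). In het1, 1 count over 3 cultures stood against 935 over 4 tumours, a ratio of 740 (132 to 29255), and in homo 2 against 1896 (724, 200 to 5981). The truncated tumours held 1.56, 2.05, 5.23 and 3.34 CPM in het1, 46.4, 37.8, 37.2 and 46.2 in het2 and 6.38, 7.83, 4.66 and 7.74 in homo, all below the lowest WT tumour (-5.07 ± 0.33 SE, adjusted p = 1.77e-08, -1.34 ± 0.27 SE, adjusted p = 0.000985 and -3.96 ± 0.31 SE, adjusted p = 9.51e-08). GSTA2 (chr6:52750089-52763569, minus strand), whose promoter stretch is identical to that of GSTA1 at 97 of 100 bases, was also highest in WT and next in het2, with 15.4, 11.4, 10.1 and 11 CPM in WT tumours, 6.08, 6.29, 5.94 and 7.78 in het2, 0.978, 1.29, 0.904 and 1.18 in homo and 0.716, 0.852, 1.27 and 1.51 in het1. The homo and het1 tumours overlapped. Reads may be split between these closely similar genes, and the counting of reads that match both was not given in the sources used here. GSTA4, which conjugates 4-hydroxynonenal, behaved otherwise: it was present in each group (11.4 to 33.9 CPM) and rose in culture by 0.58, 1.02 and 1.13.

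In the mu class GSTM3 was highest in het1 tumours, at 18.7, 20.6, 17.8 and 18.4 CPM against 6.97, 6.15, 6.76 and 7.12 in WT (1.50 ± 0.079 SE, adjusted p = 2.73e-12), and the het1 tumours under DMSO differed alike (1.35 ± 0.091 SE, adjusted p = 2.6e-10). GSTM2 rose in each truncated line, by 1.52, 2.14 and 2.01 in culture and 1.59, 1.27 and 1.47 in tumours, and shares 10.2% of its exon length with GSTM1 and GSTM4 together. GSTO2, a dehydroascorbate reductase, rose in culture from 0.915 ± 0.142 CPM in WT to 2.86 ± 0.519 in het1, 2.25 ± 0.107 in het2 and 3.04 ± 0.24 in homo (SD, 3 libraries).

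SULT1A1, the main phenol sulfotransferase, rose in the cultures of the truncated lines, from 5.32, 4.81 and 5.52 CPM in WT to 16.7, 17.1 and 16.8 in het1 (1.76 ± 0.068 SE, adjusted p = 5.27e-21), 13.4, 12.9 and 13.6 in het2 (1.42 ± 0.068 SE, adjusted p = 1.47e-18) and 9.63, 8.74 and 9.4 in homo (0.91 ± 0.071 SE, adjusted p = 4.58e-13). In tumours the gain was called in each line but was largest in het2 (46, 47.4, 48.5 and 56.4 CPM against 29.7, 24.1, 26.3 and 24.2, 0.91 ± 0.089 SE, adjusted p = 3.72e-08). The calls in het1 (0.22) and homo (0.26) rested on single libraries. The first was lost without WT replicate 1, 2 or 4 or het1 replicate 2 or 4 (0.19 to 0.22), and the second without WT replicate 1 or 4 (0.23) or homo replicate 1 (0.18). SULT2B1, which sulfates cholesterol, was highest in het2 culture (36.7, 35.6 and 35.6 CPM against 13.7, 13.2 and 13.5 in WT, 1.49 ± 0.055 SE, adjusted p = 1.28e-21) and lowest in het1 in both settings (-0.83 in culture, -0.99 in tumours). SULT1B1, a thyroid hormone sulfotransferase of the gut, was at or under 0.0527 CPM in each culture and at 2.58, 2.85, 2.14 and 3.27 CPM in WT tumours, above 0.117, 0.146, 0.0787 and 0.0972 in het1 (-4.59 ± 0.37 SE, adjusted p = 2.56e-09). SULT1E1, the oestrogen sulfotransferase, had 200 counts over the WT tumours and none in the het1 or homo tumours (at least 60.2-fold and 57.5-fold lower). NAT1, which acetylates arylamines, moved little, between 3.87 and 10.1 CPM in all libraries, and was highest in homo tumours (0.67 ± 0.1 SE, adjusted p = 1.32e-05).

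Of 22 partner genes (POR, cofactor supply, glutathione synthesis and efflux pumps), 5 rose and 17 fell in het1 culture (22 of 22, against 62.8% of all genes), 10 and 11 in het2 (95.5% against 68.5%), and 6 and 14 in homo (90.9% against 70.5%), with median log2 fold changes of -0.42, -0.06 and -0.27. POR fell in each truncated line in both settings, with log2 fold changes of -0.23, -0.13 and -0.55 in culture and -0.66, -0.67 and -0.56 in tumours. UGDH, which makes the UDP-glucuronate that UGTs use, held 1071, 1059 and 1072 CPM in WT culture, 467, 485 and 464 in het1, 314, 323 and 328 in het2 and 263, 251 and 267 in homo (-1.11 ± 0.026 SE, adjusted p = 5e-27, -1.66 ± 0.026 SE, adjusted p = 9.45e-32 and -1.95 ± 0.027 SE, adjusted p = 9.3e-34). PAPSS2, which makes the sulfate donor, went up: 91.4, 101 and 96 CPM in WT culture, 423, 426 and 413 in het1, 221, 224 and 224 in het2 and 738, 730 and 757 in homo (2.20 ± 0.029 SE, adjusted p = 1.47e-33, 1.29 ± 0.029 SE, adjusted p = 1.24e-27 and 3.03 ± 0.03 SE, adjusted p = 1.58e-37). In tumours both genes lay closer to WT, with UGDH at 748, 637, 847 and 683 CPM and PAPSS2 at 166, 123, 215 and 179 CPM in WT, het1, het2 and homo. PAPSS1 stayed within 43.0 to 60.9 CPM in all libraries. GCLC, the catalytic subunit of glutathione synthesis, fell in culture (-1.16, -0.73 and -2.27) and was above WT in tumours (0.44, 0.68 and 0.30). The efflux pump ABCC2 fell in homo culture, from 647, 659 and 677 to 70.9, 69.7 and 72.9 CPM (-3.13 ± 0.028 SE, adjusted p = 1.22e-38).

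Among 15 regulators, 14 were tested in culture, and 3 rose and 6 fell in het1 (64.3%, against 62.8% of all genes), 5 and 5 in het2 (71.4% against 68.5%), and 5 and 7 in homo (85.7% against 70.5%), with medians of -0.07, 0.02 and -0.06. The liver factor HNF4A lay far apart between the lines. HNF4A held 71, 68.1 and 71.5 CPM in WT culture, 10.2, 10.4 and 11.8 in het1, 0.415, 0.11 and 0.336 in het2 and 0.14, 0.0958 and 0.175 in homo, and the tumours at day 30 held means of 149, 131, 93.5 and 81.3 CPM in the same order. It fell in the 3 cultures (-2.63, -7.82 and -8.91) and in the het2 (-0.69) and homo (-0.86) tumours, with no call in the het1 tumours. NFE2L2 moved little, at 0.31 in homo culture and -0.47 in het1 tumours. NR1I2, the pregnane X receptor, was at or under 0.458 CPM in each library.

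The summed levels given above, which use no filter, were higher in the tumours than in the cultures in each line. More members also had a mean of at least 1 CPM in the tumours. A few abundant genes weigh heavily in the sums, which thus do not describe the set as a whole. In het1 the sum went from 2048 to 2412 CPM. Within it, the GSTs outside the alpha and mu classes, GSTP1 among them, went from 552 to 890 CPM. Growth state and a batch of libraries cannot be told apart in the contrast of tumour with culture, so its values join both. Of 85 members tested in the joint fit, 50 rose and 8 fell in WT (68.2% called, against 67.1% of all genes), 54 and 13 in het1 (78.8% against 65.2%), 55 and 13 in het2 (80.0% against 66.3%), and 45 and 13 in homo (68.2% against 64.1%). Counting rises alone, 35.0%, 36.8%, 35.6% and 34.8% of all genes rose in the same contrasts. The members' median log2 fold changes were 0.97, 1.13, 1.22 and 0.94, against 0.03, 0.09, 0.04 and 0.05 over all genes tested. With members of few or no counts set at their bound, the medians were 0.97, 1.08, 1.22 and 0.79. A member can pass the filter through the tumours alone, while 60 passed in the cultures by themselves. These counts and medians therefore lean towards rises, and describe the tested members and not the set. The 4 alpha class GSTs tested rose in each line, and the 9 UGT2, UGT3 and UGT8 members tested all rose in het2, under the same limit. Of those 9, 6 had 3 counts or fewer in the lower group. CYP1B1 fell in each line, with log2 fold changes of -2.69 ± 0.1 (SE, adjusted p = 8.86e-19) in WT, -4.89 ± 0.11 (SE, adjusted p = 3.38e-23) in het1, -5.59 ± 0.11 (SE, adjusted p = 9.16e-25) in het2 and -4.84 ± 0.12 (SE, adjusted p = 4.86e-23) in homo.

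Genes used as markers of other cell types also differed in the same contrast, and their part in it was not tested. Of 6 hepatocyte markers, 1 reached 1 CPM in each culture group and 3 to 6 did in the day 30 tumours. Their sum was 179 to 193 CPM in WT culture and 998 to 1064 in WT tumours, 2.38 to 2.57 and 91.0 to 122 in het1, 6.37 to 7.25 and 1091 to 1374 in het2, and 7.39 to 8.34 in homo culture. Nearly all of it was CPS1, which had a mean of 480 CPM in homo tumours, and albumin did not exceed a mean of 6.83 CPM. CPS1 had a mean of 186 CPM in WT culture and 2.05 CPM in het1 culture, so the cultured lines carry it themselves. This sum is thus not specific to another cell type. Fibroblast markers summed to 7.26 to 65.0 CPM in cultures and 109 to 489 CPM in day 30 tumours, endothelial markers to 0.178 to 0.481 and 1.1 to 8.89 CPM, and myeloid markers to 0.712 to 3.40 and 7.23 to 45.3 CPM. In these tumours the fibroblast sum was mostly COL1A1 (means of 120 to 226 CPM) and the myeloid sum mostly LYZ (6.55 to 32.3 CPM). Homo cultures carried COL1A1 too, at a mean of 50.5 CPM. Other markers fell, such as THY1 in each line, PDGFRA in homo, CDH5 in WT and het1, and ITGAM in WT. Adipocyte markers summed to at most 2.17 CPM, with ADIPOQ at or near 0. How reads of the host were handled was not given in the sources used here.

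Under DMSO, het1 tumours differed from WT tumours in 25 rises and 28 falls among 74 members tested (71.6% against 54.0% of all genes, with 27.3% of all genes up and 26.8% down), with a median of -0.04. These libraries are separate from those of day 30 but come from the same lines. Of the 23 members raised in het1 at day 30, 22 were raised under DMSO too (95.7% of the day 30 list and 88.0% of the DMSO list), and of the 35 lowered, 26 were lowered (74.3% and 92.9%). No member was called in opposite directions. The same overlap was not counted over all genes, so these shares do not set the members apart from other genes. Fewer members were tested under DMSO (74, against 79 at day 30), so some day 30 falls could not be shared. Under SAHA the same contrast gave 25 rises and 31 falls (75.7% against 58.9%, with 29.9% of all genes up and 29.0% down).

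Few members differed between SAHA and DMSO in WT tumours. With edgeR no member was called (0.0% of all genes were), 8 of 74 had an unadjusted p under 0.05, and DESeq2 called 2, among them UGT1A7, which was lower. In het1 tumours 5 members rose and 13 fell (24.3%, against 16.8% of all genes, with 7.68% of all genes up and 9.15% down), with a median of -0.13. The falls included 4 of 7 family 4 P450s tested, GSTA1 and GSTA2, CES1 and CES2, and the rises CYP39A1, CYP26B1 and CYP2U1.

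CYP4F11 fell in het1 from 100, 145, 124 and 129 CPM under DMSO to 53.1, 78.1, 53.9 and 64.9 under SAHA (-0.99 ± 0.23 SE, adjusted p = 0.0124), with no overlap. In WT it held 88.7, 103, 102 and 100 CPM under DMSO and 114, 147, 54.9 and 98.8 under SAHA, where 1 library, replicate 6, lay below the others. CYP4F3 (-0.87 ± 0.14 SE, adjusted p = 0.000885) and CYP4F2 (-0.90 ± 0.17 SE, adjusted p = 0.0015), which acts on vitamin K, fell alongside it. GSTA1 fell from 3.81, 2.45, 3.01 and 7.22 to 1.05, 0.923, 0.637 and 1.48 CPM (-2.02 ± 0.48 SE, adjusted p = 0.013) and GSTA2 from 1.02, 0.903, 1.04 and 1.31 to 0.24, 0.258, 0.135 and 0.337 CPM (-2.15 ± 0.37 SE, adjusted p = 0.0009). The WT values of GSTA2 were 2.48, 4.58, 4.97 and 5.38 CPM under DMSO and 4.61, 5.71, 1.99 and 4.57 under SAHA, which overlapped. CYP7B1, SULT1C2 and UGT2A3 also fell in het1 (-1.16, -1.45 and -1.57). CYP39A1 rose from 0.764, 0.431, 0.68 and 0.475 to 1.77, 1.55, 1.74 and 1.22 CPM (1.43 ± 0.31 SE, adjusted p = 0.00399), and CYP26B1 from 24.4, 31.8, 27.2 and 26 to 39.3, 32.2, 38.8 and 39.3 CPM (0.46 ± 0.11 SE, adjusted p = 0.00807). The smaller calls of CES1 (-0.73 ± 0.23 SE, adjusted p = 0.0439) and CES2 (-0.19 ± 0.062 SE, adjusted p = 0.0374) rested on single libraries. That of CES1 passed in 1 of the 8 fits that left out 1 library, without het1 DMSO replicate 4, and ranged from -0.84 to -0.63. That of CES2 passed without het1 DMSO replicate 2 or het1 SAHA replicate 2 or 6, and ranged from -0.24 to -0.17.

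**Figure D5:**
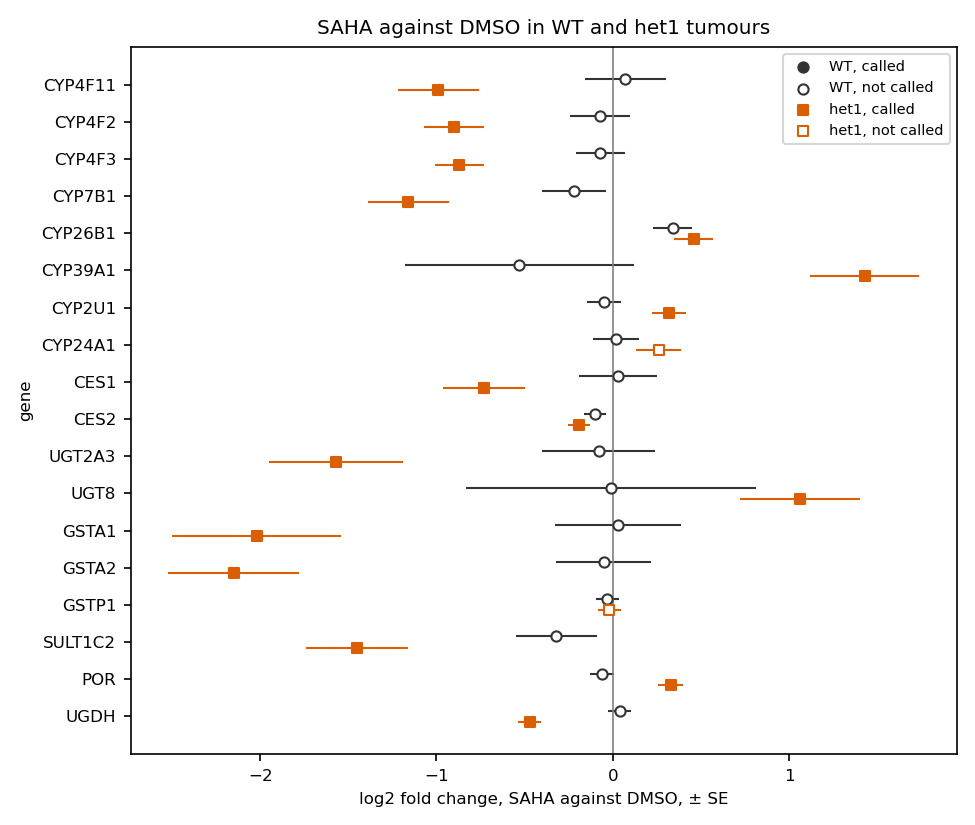
Log2 fold change ± SE of SAHA against DMSO for 18 genes in WT (circles) and het1 (squares) tumours, with filled symbols called. The WT symbols are all open and most lie near 0, while CYP4F11, CYP4F2, CYP4F3, GSTA1 and GSTA2 lie left of 0 in het1.

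Whether the SAHA effect differed between het1 and WT was tested directly. Of 74 members 1 rose and 2 fell in that test (4.05%, against 4.72% of all genes, with 2.01% of all genes up and 2.71% down). They were GSTA2 (-2.10 ± 0.46 SE, adjusted p = 0.0167), CYP4F3 (-0.80 ± 0.2 SE, adjusted p = 0.0335) and CYP27A1 (2.04 ± 0.56 SE, adjusted p = 0.0429), the last at or under 0.474 CPM in each library. GSTA2 was called in each of the 16 fits that left out 1 library, CYP4F3 in 5 of them (-0.91 to -0.69 over the 16) and CYP27A1 in 4 (1.83 to 2.30). CYP4F11 (adjusted p = 0.0917) and GSTA1 (adjusted p = 0.0763) did not pass. Without WT SAHA replicate 6, 7 members passed, namely GSTA2, CYP4F3, CYP4F11 (-1.27), CYP4F2, GSTA1 (-2.30), CES1 and CYP2S1. GSTA2 alone passed without WT DMSO replicate 7 or 8, WT SAHA replicate 3, het1 DMSO replicate 3 or 5, or het1 SAHA replicate 1 or 3. Of the partner genes, POR rose and UGDH fell in het1 relative to WT (0.38 ± 0.1 SE, adjusted p = 0.033 and -0.50 ± 0.093 SE, adjusted p = 0.00479), and the POR call was lost in 8 of the 16 fits, where its value was 0.35 to 0.40. UGDH held 648, 655, 623 and 675 CPM in het1 under DMSO and 457, 446, 450 and 518 under SAHA, with no overlap, and GCLC 281, 291, 259 and 280 and 152, 165, 159 and 169 CPM. Under SAHA against DMSO in het1, 1 of the 22 partner genes rose and 10 fell (11 of 22, against 16.8% of all genes, with 7.68% up and 9.15% down).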

How the data were processed

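RNA-seq read counts per gene were analysed as deposited, in 3 tables (cultures, day 30 tumours, treated tumours) of whole-number counts that the authors made. The material was polyA RNA (RNeasy Plus Mini, QIAGEN) and the libraries were stranded (KAPA mRNA-seq), per the labels' protocols. HISAT2, HTSeq, bcl2fastq and the build hg38 are named in the submitters' processing notes. Their versions, the strand setting, the handling of reads that match several genes and of host reads were not given in the sources used here. All 58721 identifiers matched GENCODE 29, which gave names, biotypes and coordinates.

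Counts were tested with edgeR 4.0.16 (quasi-likelihood, robust, TMM, low counts removed with filterByExpr, R 4.3.3, limma 3.58.1) in 1 fit per table and 1 joint fit of cultures and day 30 tumours for contrasts of tumour with culture. Adjusted p-values are Benjamini-Hochberg over all genes tested, with a threshold of 0.05. The fits were checked on simulated data. CPM were normalised over the 44 libraries, so log2 ratios of the printed culture levels to WT run 0.07 to 0.08 below the fitted log2 fold changes. No 2 libraries of a group were identical (0 of 60 pairs). Per kb values divide CPM by the merged exon length of the gene.

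Genes named with values were the 16 members of highest mean over the 12 groups, up to 4 rises and 4 falls of greatest fold change per contrast among called members of at least 1 CPM without overlap, and POR, UGDH, PAPSS1, PAPSS2, AHR, NFE2L2 and NR1I2. Other members named illustrate a family and were chosen after their values were seen. Values of some genes are not reported here. The members and lists were chosen with earlier results of these data known. Alternatives were DESeq2 1.42.0, DESeq2's size factors in edgeR, testing without the filter or only genes with a mean of at least 1 CPM, a replicate block, only the groups compared, and leaving out each library.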

Additional observations from a re-analysis of the deposited data

Results flagged for a closer look

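The test of whether SAHA acted differently in het1 and WT tumours passed for GSTA2 (-2.10 on the log2 scale), CYP4F3 (-0.80), CYP27A1 (2.04), POR (0.38) and UGDH (-0.50). GSTA2 kept its call whichever library was left out, and the others did not all do so.

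The difference between a truncated line and WT was not the same in tumours as in culture for several members, each by a test of that difference. In het1 it changed by -2.20 for CYP1B1, 2.42 for CYP2S1, 3.02 for CYP4F12, 2.09 for CYP4F3 and -3.03 for CYP7B1. In het2 it changed by -2.90 for CYP1B1, 2.06 for CYP2S1, 3.59 for CYP4F12, 1.62 for CYP4F3 and -1.49 for SULT2B1. In homo it changed by 4.62 for CES1, -2.15 for CYP1B1, 1.61 for CYP2S1, 5.03 for CYP4F12, 4.03 for CYP4F3 and 1.79 for CYP24A1. Among all members tested, 14 rose and 16 fell in this test in het1 (35.3%, against 39.2% of all genes), 24 and 20 in het2 (51.8% against 47.6%), and 20 and 18 in homo (44.7% against 49.1%). The shares of members were thus near those of all genes.

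Of 128 combinations of a panel member and a group of 4 tumours, 2 had 1 library far from the other 3 (its gap to the next was over Dixon's critical share of the group's range). They were CYP26B1 at 32.2 CPM in het1 SAHA replicate 2 and GSTZ1 at 21.2 CPM in WT DMSO replicate 2. Chance alone marks about 1 in 20 such groups.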

How the results depend on the processing

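Counts of members called stayed within 1.5 times of the reported ones under each alternative run, except for the following. A filter at a mean of 1 CPM leaves fewer members to test and gave 31 calls in homo culture, 29 in het1 under DMSO, 33 in het1 under SAHA, and 31, 38, 36 and 34 for tumour against culture in WT, het1, het2 and homo. For SAHA in WT, DESeq2 gave 2 calls, and leaving out 1 library gave 0 to 1, the 1 without WT DMSO replicate 3. For SAHA in het1, leaving out 1 library gave 12 to 17 calls. For the difference between these, DESeq2 gave 9, no filter 1, and leaving out 1 library 1 to 7. The cause was not tested.

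Libraries of the same replicate number did not deviate together over all genes tested (correlations of -0.13 to 0.11), and they were treated as unpaired. Such a correlation cannot exclude a shared animal, culture or batch that moves only some genes. With the replicate number as a block, edgeR called 1 member for SAHA in het1 (CYP7B1) and 0 for the difference between het1 and WT (7 members at an unadjusted p under 0.05, against 9 calls by DESeq2 without the block), and it removed 27 calls of single genes.

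Some differences of SAHA in WT, none of them called, changed sign when 1 library was left out. Over the libraries left out, CYP4F11 ranged from -0.15 (without WT SAHA replicate 4) to 0.28 and CYP4F3 from -0.19 to 0.04 (without WT SAHA replicate 6). GSTA1 was at -0.12 without WT DMSO replicate 2, -0.03 without WT SAHA replicate 3 and -0.23 without WT SAHA replicate 4, and reached 0.27. GSTA2 was at 0.02 without WT DMSO replicate 7, 0.08 without WT DMSO replicate 8 and 0.19 without WT SAHA replicate 6, and as low as -0.24.

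Depth limits members at 0 to 3 counts in a group, for which only bounds or counting intervals were given. Groups of 3 or 4 libraries, and 1 to 2 lines per genotype, limit the rest.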
